A study of Mus musculus with 6 samples.

Results

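The nuclear-encoded subunits of the mitochondrial respiratory chain and of ATP synthase were compared between CD11c+ and CD11c- T cells from the blood of the same mice. A gene belonged to the set if its symbol began as the subunits' symbols do (Nduf with a, b, c, s or v and a number, Uqcr, Cox4 to Cox8, Atp5, Sdha to Sdhd) or was Cyc1 or Cycs. By this rule 81 of 17097 genes with an unambiguous probe set were found, with 139 probe sets among them. Where a gene had several probe sets the brightest over the 6 arrays stood for it, a choice that did not use the difference between the fractions. The 81 genes comprised 31 of complex I, 4 of complex II, 8 of complex III, cytochrome c itself, 19 of complex IV, 17 of ATP synthase and Ndufs5-ps, whose symbol is that of a pseudogene. Subunits whose symbols the rule did not match, and those encoded by mitochondrial DNA, were not analysed here.

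Blood was taken by cardiac puncture from female C57BL/6 mice of 6 to 8 weeks, labelled A, C and D, and CD3+ CD62L- CD44High cells, the phenotype of effector memory T cells, were sorted from each into a CD11c positive and a CD11c negative fraction. The labels name no genotype beyond the strain. The protocol given for all 6 samples has a group of 6 females injected with 3 mg of Depo-Provera, a depot progestin, 5 days before (6 days in another description). Each of the 6 samples held 300 cells, whose RNA was amplified as cDNA and read on 1 Affymetrix array, so n was 3 pairs throughout. CD11c, encoded by Itgax, is an integrin chain known best from dendritic cells and macrophages and also found on some activated T cells.

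The respiratory chain passes electrons from NADH (complex I) or succinate (complex II) through complex III and cytochrome c to oxygen at complex IV, and complexes I, III and IV pump protons across the inner membrane. ATP synthase lets these protons flow back and makes ATP. Naive and memory T cells draw on this pathway at rest, and activated T cells add glycolysis to it. Most subunits are encoded in the nucleus, and NRF1, the ETS factor GABP and YY1 are known regulators of many of them.

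These regulators were the reason to look at the promoters, of which the RefSeq table (GRCm38.p6) held 64 of the 81. Each window ran from upstream of the transcription start to just past it. The letters GCGCATGC, the NRF1 core, stood on either strand in 11 of the 64 genes (17.2%), against 3.94% of 17492 protein-coding genes. The YY1 core GATGGCGG stood in 6 (9.38%, against 2.62%) and the ETS core CCGGAAGT in 4 (6.25%, against 5.69%). At least 1 of these words stood in 20 genes (31.2%, against 11.4%), Uqcr11 holding both the NRF1 and the ETS core. A gene with several listed starts had a window for each, 1.08 per gene in the set and 1.22 over all. The promoters of 3 genes are shown, with the matched letters in capitals in either orientation. They are Cycs with an NRF1 core (chr6:50566520-50566819), Cox8a with a pair of ETS cores (chr19:7217567-7217866) and Ndufs4 with a YY1 core (chr13:114388045-114388344), all printed 5′ to 3′ on the minus strand of the chromosome. Cox8a had the largest positive and Ndufs4 the largest negative difference among the genes above background.
Cycs: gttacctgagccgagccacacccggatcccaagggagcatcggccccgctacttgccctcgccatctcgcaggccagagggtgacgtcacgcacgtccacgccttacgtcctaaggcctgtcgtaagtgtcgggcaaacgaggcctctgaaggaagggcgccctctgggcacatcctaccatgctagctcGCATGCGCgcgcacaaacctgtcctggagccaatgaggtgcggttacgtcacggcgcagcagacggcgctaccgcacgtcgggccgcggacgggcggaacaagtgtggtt
Cox8a: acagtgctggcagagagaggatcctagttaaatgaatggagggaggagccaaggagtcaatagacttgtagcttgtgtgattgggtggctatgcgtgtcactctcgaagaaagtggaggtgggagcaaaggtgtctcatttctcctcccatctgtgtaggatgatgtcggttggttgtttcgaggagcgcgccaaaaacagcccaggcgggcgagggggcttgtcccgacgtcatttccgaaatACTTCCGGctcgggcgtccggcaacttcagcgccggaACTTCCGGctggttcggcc
Ndufs4: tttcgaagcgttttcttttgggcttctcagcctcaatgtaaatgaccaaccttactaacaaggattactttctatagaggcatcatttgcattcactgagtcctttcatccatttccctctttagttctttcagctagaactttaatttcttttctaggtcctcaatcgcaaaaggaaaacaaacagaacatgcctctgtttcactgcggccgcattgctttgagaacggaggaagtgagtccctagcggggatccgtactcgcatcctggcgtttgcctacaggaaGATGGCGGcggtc

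Of the 81 genes, 73 had mean values above background in both fractions, 1 in one of them and 7 in neither. Background was set at 5.62 on the log2 scale, below which 95% of 37 genes specific to other tissues had their means. Those not above it were Sdhc, Sdhd and the tissue-restricted or alternative forms Cox4i2, Cox6a2, Cox6b2, Cox7a1, Cox7b2 and Ndufa4l2. The common subunits of complexes I, III, IV and ATP synthase were thus measured throughout. Values of different probe sets depend on their own binding, so levels were not ranked between genes.

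No gene of the set differed between CD11c+ and CD11c- T cells in limma's test (adjusted p below 0.05 over all 45141 probe sets, mouse as a block), with 0 higher and 0 lower. Over all probe sets 0.957% were called higher in CD11c+ cells and 0.168% lower, so a count of 0 among 81 genes was close to the background. The lowest adjusted p was 0.357, for Ndufs4. Without adjustment 3 of the 81 had p below 0.05, with Cox6b2 higher and Ndufs3 and Ndufs4 lower, where 13.5% of all probe sets did. Differences, always CD11c+ minus CD11c- on the log2 scale, ran from -0.69 to 0.53, with a median of -0.07 beside -0.09 over all genes. The median within mice A, C and D was 0.00194, -0.0768 and -0.0609.

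**Figure D1:**
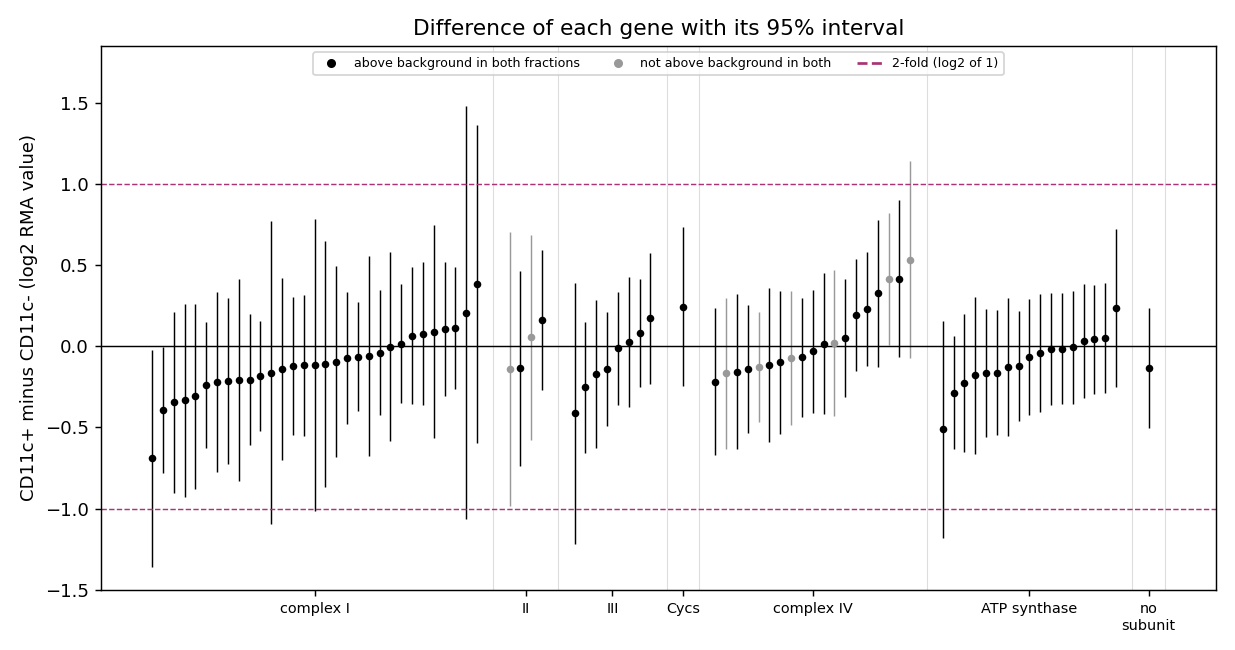
Difference between the fractions (CD11c+ minus CD11c-, log2 RMA value, limma with the mouse as a block) for each of the 81 genes, sorted within its complex. Bars are 95% intervals from 3 pairs of arrays, grey points mark genes not above background in both fractions, and dashed lines mark a 2-fold difference. Every point lies between the dashed lines, and 73 of the 81 intervals do.

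A p above the threshold does not show that the values were alike, so the size that each interval allowed was counted. The 95% interval of the difference stayed within 2-fold in either direction for 73 of the 81 genes (90.1%) and for 66 of the 73 above background (90.4%). Of all 6127 genes above background, 65.0% had such an interval. The median standard error was 0.158 for the 73 and 0.186 for the 6127. Among genes with a mean over 8, where the median standard errors were 0.158 and 0.157, 58 of 62 respiratory chain genes (93.5%) and 76.6% of all 1916 genes had intervals within 2-fold. The 8 genes whose intervals reached beyond 2-fold were Ndufs1, Ndufv1, Ndufs4, Ndufb5, Ndufc2, Uqcrc2, Atp5g1 and Cox7a1.

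The differences also spread less than those of other genes. No point estimate in the set exceeded 2-fold, against 6.58% of the genes above background and 7.31% of those with a mean over 8. The interquartile range of the differences was 0.213 for the 73 genes and 0.497 for all genes above background. The 3 values of one fraction lay wholly above or below those of the other for 2 of the 73, Ndufs3 and Cox5b, and for 23.2% of all genes above background. A further gene whose fractions did not overlap, Ndufa4l2, was below background. In 3 of 3 mice 7 of the 73 were higher and 10 lower, where 16.7% and 26.7% of all genes above background were. These counts are descriptions, and no test was made over the set.

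**Figure D2:**
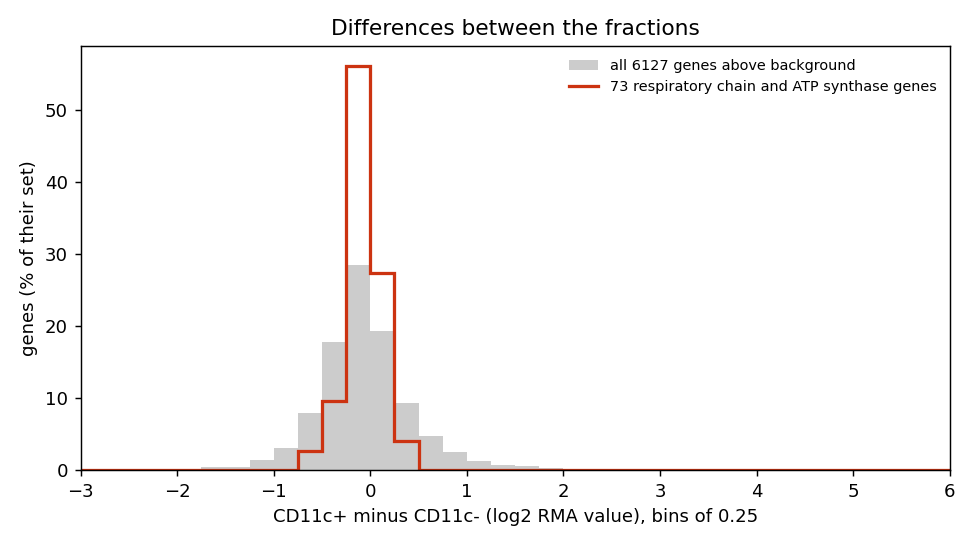
Share of genes (%) by difference between the fractions (CD11c+ minus CD11c-, log2 RMA value, bins of 0.25). The red outline, for the 73 respiratory chain and ATP synthase genes above background, is narrower than the grey area, for all 6127 genes above background, and both peak just below 0.

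Complex I had the lowest median of the complexes, -0.12, beside -0.09 for all genes above background. Of its 31 genes 23 (74.2%) had a difference below 0, where 60.1% of all genes above background did. In 3 of 3 mice 5 of the 31 were lower (16.1%), where 26.7% of all genes above background were. The median of complex I was -0.03 under cyclic loess scaling and -0.19, -0.12 and -0.03 without mouse A, C and D in turn. The median within mice A, C and D was 0.05, -0.17 and -0.31. Ndufs4, an accessory subunit near the NADH-oxidising arm whose loss causes complex I deficiency, read 9.29, 8.78 and 9.13 in the CD11c- fractions of mice A, C and D. It read 8.83, 8.50 and 7.80 in their CD11c+ fractions, a difference of -0.69 (SE 0.250, adjusted p = 0.357). The value was lower in CD11c+ cells in 3 of 3 mice, most in mouse D, and the fractions overlapped. Its other probe sets, of which 1 was above background in neither fraction, gave -0.34 each, with 1 of 3 mice going the other way in each.

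Ndufs3, a core subunit of the same arm, read 8.63, 8.67 and 8.48 in CD11c- cells and 8.45, 8.24 and 7.91 in CD11c+ cells. The highest CD11c+ value lay just below the lowest CD11c- value, and the difference was -0.39 (SE 0.145, adjusted p = 0.368). Ndufa3, an accessory subunit, read 11.08, 10.69 and 10.90 against 10.96, 10.70 and 10.08, where the low value of mouse D in CD11c+ cells carried the difference of -0.31 (SE 0.213). Ndufb8, an accessory subunit of the membrane arm, was higher in 3 of 3 mice, by 0.11 in the mean (SE 0.140), with 9.13, 8.76 and 9.04 in CD11c- and 9.13, 9.08 and 9.06 in CD11c+ cells. The 6 matched core subunits ran from -0.39 to 0.38 by their brightest probe sets. Among them Ndufs8 had -0.11, but its dimmer probe sets, all above background, gave 0.73, 0.38 and 0.37. The fractions lay apart for those at 0.73 and 0.38, and none passed the test.

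The upper end of the range over the brightest probe sets was Ndufv1, the flavin-bearing subunit that oxidises NADH. It read 8.80, 8.96 and 7.38 in CD11c- and 9.02, 8.55 and 8.72 in CD11c+ cells, so the difference of 0.38 (SE 0.366) rested on the low CD11c- value of mouse D. Without mouse D it was -0.10. Ndufs1, the largest core subunit, read 6.26, 6.96 and 5.35 against 5.27, 7.20 and 6.72, and Ndufb5 read 7.23, 8.14 and 8.46 against 8.04, 7.55 and 7.76. Mice pointed in opposite directions for each of these genes.

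**Figure D3:**
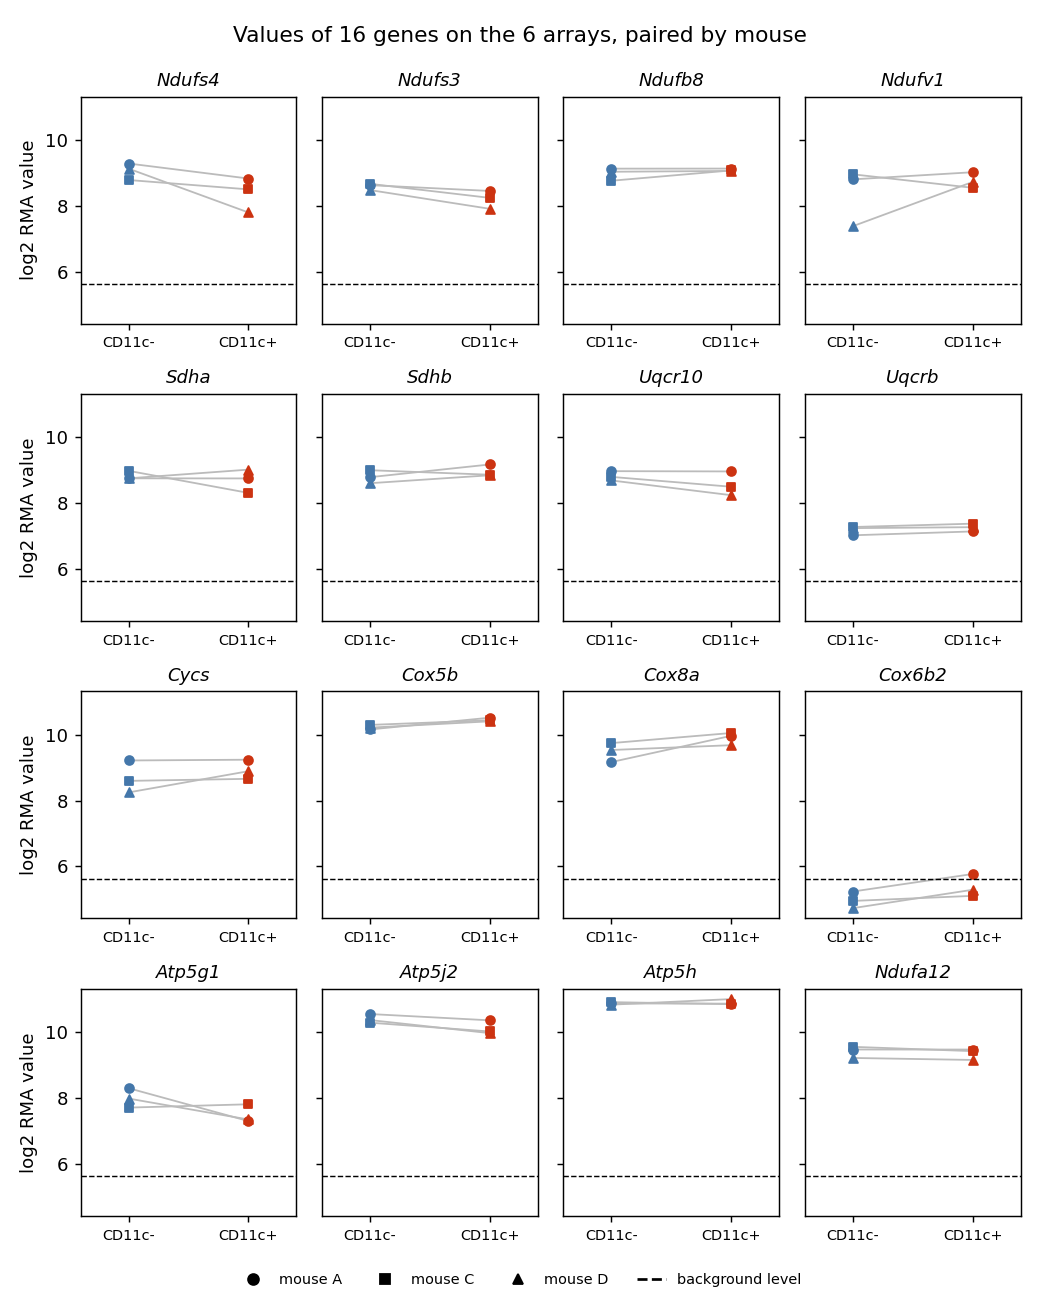
Log2 RMA values of 16 genes on the 6 arrays, with CD11c- fractions in blue and CD11c+ fractions in red, a symbol for each mouse and a grey line joining the fractions of a mouse. The dashed line is the background level of 5.62. The lines are close to flat for most genes, mouse D falls furthest for Ndufs4, and Cox6b2 lies at background.

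One probe set of a complex I gene did pass the test, the only 1 of the 139. It was the dimmest of 3 for Ndufa12, an accessory subunit, and it was looked up after its values were known. It read 4.51, 4.40 and 4.43 in CD11c- cells, below background, and 6.30, 6.16 and 6.06 in CD11c+ cells, a difference of 1.73 (SE 0.127, adjusted p = 0.0196). The brightest probe set of the gene read 9.47, 9.55 and 9.22 against 9.47, 9.42 and 9.16, a difference of -0.06 (SE 0.126, adjusted p = 0.857). The remaining probe set gave 0.49 (SE 0.144, adjusted p = 0.270). The probe sets of Ndufa12 thus disagreed in direction, and which transcript each reads was not tested. Of 34 genes with several probe sets above background, 8 had probe sets that differed in sign.

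Complex II, succinate dehydrogenase, is also an enzyme of the citric acid cycle. Its catalytic subunit Sdha read 8.76, 8.98 and 8.75 in CD11c- and 8.75, 8.31 and 9.02 in CD11c+ cells (difference -0.14, SE 0.224). The iron-sulfur subunit Sdhb read 8.79, 9.002 and 8.61 against 9.18, 8.87 and 8.85 (0.16, SE 0.162). Neither had 1 direction in all mice. The membrane anchors Sdhc and Sdhd were not above background in either fraction, with mean differences of -0.14 and 0.05.

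In complex III the median was -0.08. Uqcr10, a small subunit, read 8.97, 8.80 and 8.69 in CD11c- and 8.97, 8.50 and 8.24 in CD11c+ cells, lower in 3 of 3 mice but by only 0.01 in mouse A (difference -0.25, SE 0.151, adjusted p = 0.583). Uqcrb, which binds ubiquinone, read 7.02, 7.28 and 7.24 against 7.14, 7.38 and 7.27, higher in 3 of 3 mice by 0.08 in the mean (SE 0.124). Cyc1, the haem-bearing cytochrome c1, had a difference of -0.17 (SE 0.170) and no common direction. The largest difference in the complex was that of the core protein Uqcrc2, -0.41 (SE 0.301), with mouse A higher and mice C and D lower.

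Cytochrome c, the soluble electron carrier whose release also triggers apoptosis, read 9.22, 8.60 and 8.25 in CD11c- and 9.24, 8.66 and 8.89 in CD11c+ cells. Cycs was higher in 3 of 3 mice, by 0.02 in mouse A, 0.06 in mouse C and 0.64 in mouse D (mean 0.24, SE 0.183, adjusted p = 0.660). The means of the 3 mice for Cycs ranged over 0.66, a measure wider by construction than the difference between the fractions. Of its dimmer probe sets, the one above background gave 0.61 (SE 0.157, adjusted p = 0.212), also higher in 3 of 3 mice.

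Complex IV held 6 of the 9 genes of the set that were higher in 3 of 3 mice, Cox6b2 and Cox7a1 among them being above background in neither fraction. Of all 17097 genes 12.6% were higher in 3 of 3 mice. Among its 10 common subunits the median was 0.03, and Cox5a, Cox5b, Cox6a1 and Cox8a were higher in 3 of 3 mice while none was lower in all. Cox8a, a small membrane subunit, read 9.17, 9.75 and 9.54 in CD11c- and 9.97, 10.05 and 9.68 in CD11c+ cells (difference 0.42, SE 0.180, adjusted p = 0.442), and its other probe set gave 0.57. Cox5b, a peripheral subunit, read 10.16, 10.30 and 10.22 against 10.52, 10.44 and 10.41, with the fractions apart but by little (0.23, SE 0.131, adjusted p = 0.563). Cox5a had a difference of 0.33 (SE 0.169) and Cox6a1 of 0.19 (SE 0.129). Other probe sets of Cox5a gave 0.24 and 0.08, the latter lower in mice C and D. That of Cox6a1 gave 0.004 and was lower in mouse C. For Cox5b they gave 0.17 with the fractions overlapping, 0.65 with mouse D lower, and -0.09 below background. None of these differences passed the test. Cox4i1, the largest nuclear-encoded subunit, read 10.34, 10.31 and 10.07 against 10.32, 10.26 and 10.30 (0.05, SE 0.137).

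Several complex IV subunits exist as a common and a tissue-restricted form, the latter known from heart, skeletal muscle, lung or testis. Where Cox4i1, Cox6a1, Cox6b1, Cox7a2 and Cox8a were well above background in both fractions, Cox4i2, Cox6b2 and Cox7a1 were not above it in either, and Cox6a2 and Cox8b had means within 0.2 of it. Cox6b2, the testis form, had the lowest unadjusted p of complex IV, with 5.23, 4.95 and 4.73 against 5.77, 5.10 and 5.29 (0.42, SE 0.151, adjusted p = 0.360), and Cox7a1, the heart and muscle form, had the largest difference, 0.53 (SE 0.226, adjusted p = 0.432). These values are at background and give no level. The common forms Cox6b1, Cox7a2 and the assembly-linked Cox7a2l had differences of -0.10, 0.02 and -0.07. Ndufa4, now counted with complex IV, had -0.16 (SE 0.178), and its relative Ndufa4l2 was not above background.

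ATP synthase had a median of -0.07, beside -0.09 for all genes above background. Of its 17 genes 13 were below 0 (76.5%), where 60.1% of all genes above background were. In 3 of 3 mice 3 of the 17 were lower (17.6%), where 26.7% of all genes above background were. The ring of its membrane part is built from identical proteins encoded by Atp5g1, Atp5g2 and Atp5g3. Atp5g1 read 8.30, 7.71 and 7.98 in CD11c- and 7.30, 7.81 and 7.35 in CD11c+ cells, lower in mice A and D and higher in mouse C (-0.51, SE 0.250, adjusted p = 0.500). Atp5g2 and Atp5g3 were lower in 3 of 3 mice, by 0.23 and 0.12 in the mean on the log2 scale (-0.23, SE 0.159, and -0.12, SE 0.127). Atp5j2, a subunit of the membrane part, read 10.55, 10.29 and 10.37 against 10.36, 10.02 and 9.97 (-0.29, SE 0.130, adjusted p = 0.464), and its other probe set gave -0.54 (SE 0.138, adjusted p = 0.209). The 5 subunits of the catalytic head, Atp5a1 to Atp5e, lay between -0.16 and 0.05. Atp5h, of the stalk, read 10.87, 10.91 and 10.84 against 10.87, 10.85 and 11.00, among the steadiest of the set.

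The same values were then compared between mice. The means of the 3 mice ranged further than the size of the difference between the fractions for 70 of the 81 genes (86.4%), and for 66.0% of all genes above background. Sdhc, Ndufs1 and Ndufv1 had the widest ranges, 1.83, 1.31 and 0.86, Sdhc being below background. In the same limma fit 0 genes of the set passed for the mouse term, as did 0% of all probe sets, and without adjustment 8 of 81 had p below 0.05, where 7.75% of all probe sets did. A range over 3 means is wider by construction than a difference between 2, so the shares are read only against each other.

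**Figure D4:**
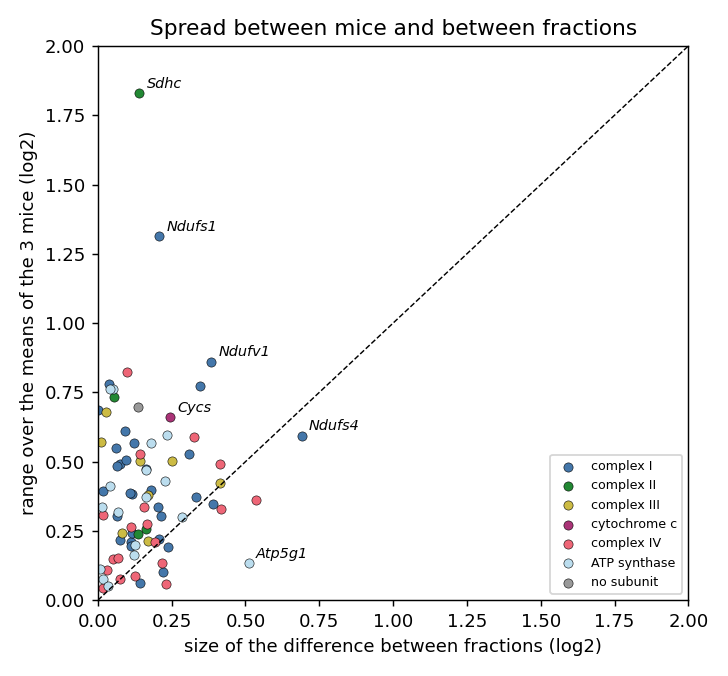
Range over the means of the 3 mice against the size of the difference between the fractions (both log2) for the 81 genes, coloured by complex. Points above the dashed line of equality, 70 of 81, had a range larger than the difference, and Ndufs4 and Atp5g1 lie below it. A range over 3 means is wider by construction, so the line does not mark equal variation between mice and fractions.

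The differences were set beside the motifs as a description. The 11 genes with the NRF1 core had a median difference of -0.07, as had the 53 without it. The 6 with the YY1 core (Atp5j, Ndufa7, Ndufa9, Ndufs4, Ndufs6 and Ndufs7) were all below 0, with a median of -0.21 against -0.07 for the other 58, where 66.1% of all genes were below 0. Only Ndufs4 of these was lower in 3 of 3 mice, and leaving out 1 mouse turned Atp5j (to 0.01), Ndufa9 (to 0.08) and Ndufs6 (to 0.11) above 0. The 4 with the ETS core ran from -0.39 in Ndufs3 to 0.42 in Cox8a. Of the factors themselves, Nrf1 had a difference of -0.13 (SE 0.146), Gabpa of 0.22 (SE 0.193) and Yy1 of -0.00349 (SE 0.149).

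Related genes of the mitochondrion were listed alongside, and none passed the test among 40 assembly factors, 12 citric acid cycle enzymes, 8 carriers and 19 genes of mitochondrial gene expression and its regulation. Their medians were -0.15, 0.08, -0.03 and -0.13. The carriers spread about as the subunits did and the other lists more widely, with interquartile ranges of 0.603, 0.388, 0.239 and 0.706 beside 0.214 for the 81. Intervals stayed within 2-fold for 62.5% of the assembly factors, 41.7% of the citric acid cycle enzymes, 87.5% of the carriers and 42.1% of the genes of mitochondrial gene expression, beside 90.1% of the subunits.

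Nearest to the threshold were a pair of citric acid cycle genes. Idh2, the mitochondrial NADP-dependent isocitrate dehydrogenase, read 7.88, 7.57 and 7.34 in CD11c- and 8.94, 9.49 and 9.27 in CD11c+ cells (1.63, SE 0.228, adjusted p = 0.074). Dlst, of the oxoglutarate dehydrogenase complex, read 6.18, 6.48 and 6.06 against 7.29, 7.42 and 7.45 (1.15, SE 0.151, adjusted p = 0.065). For each the fractions lay apart. Cs, which encodes citrate synthase, had an RNA difference of 0.01 (SE 0.133), and mitochondrial content was not measured. At the other end, Sdhaf1, which helps to insert the iron-sulfur clusters of complex II, read 7.40, 7.88 and 7.86 against 6.76, 6.58 and 6.45 (-1.12, SE 0.203, adjusted p = 0.118). Atpaf1, an assembly factor of ATP synthase, had -0.74 (SE 0.154, adjusted p = 0.148). Polg2, of the mitochondrial DNA polymerase, had -1.10 (SE 0.299, adjusted p = 0.234) and Gabpb2, a GABP subunit, -0.78 (SE 0.160, adjusted p = 0.145). The 19 genes of mitochondrial gene expression and its regulation ran from -1.33 to 0.90, so Polg2 was not their lowest. Of the 19, 7 had a difference above 0 and 12 below, and 3 were higher and 5 lower in 3 of 3 mice.

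**Figure D5:**
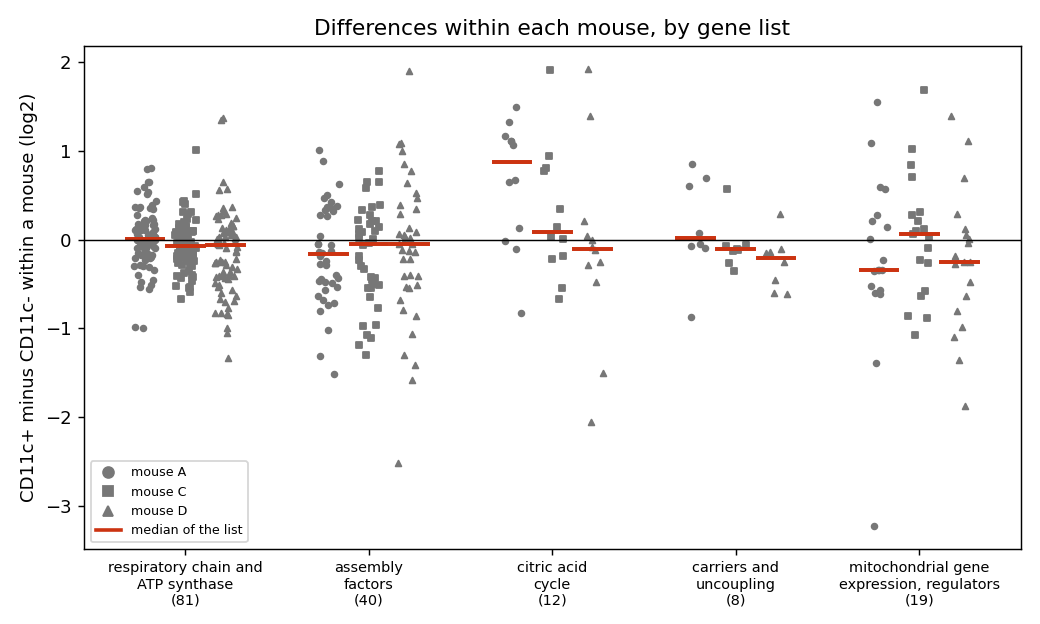
Difference between the fractions within each mouse (CD11c+ minus CD11c-, log2 RMA value) for the 81 subunit genes and 4 related lists, with the number of genes in brackets and a red bar at each list's median. The subunits lie closer to 0 than the assembly factors, the citric acid cycle genes and the regulators, and the citric acid cycle genes of mouse A lie highest.

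The fractions differed in other cells' markers, and these values stand beside every result above. Itgax was higher in CD11c+ cells by 4.37 (SE 0.441, adjusted p = 0.0387), as the sort implies. All 10 T cell markers measured were below 0 (median -0.68, 2 called lower), their summed linear signal being 10612 to 11268 in CD11c- and 5829 to 7146 in CD11c+ samples. Of basophil and mast cell markers 7 of 9 were called higher (137 to 151 against 2743 to 4504, Kit below background in both), of monocyte and macrophage markers 6 of 9 (554 to 748 against 3768 to 4783, Cd14 below background), and of NK cell markers 4 of 9, with 1 lower (1787 to 1818 against 5638 to 6809, Ncr1 below background). Of dendritic cell markers 2 of 6 were called higher (138 to 153 against 761 to 1728, Zbtb46 and Xcr1 below background), of B cell markers 1 of 8 (572 to 1364 against 564 to 1371, Ms4a1, Ebf1 and Blnk below background). Of neutrophil markers 8 of 9 were below background, S100a8 and S100a9 among them, with sums of 135 to 170 against 173 to 260, and 1 was called higher. Of red cell and platelet markers 1 of 8 was called higher (311 to 3834 against 848 to 1747). Among the antigens that divide T cells, Cd4 had a difference of -2.50 (SE 0.407, adjusted p = 0.0973) and Cd8a of 1.54 (SE 0.325, adjusted p = 0.151). In bulk samples fewer cells of a type and less RNA per cell cannot be told apart, and the part of other cells in the respiratory chain values was not tested.

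The counts also depend on what the arrays are scaled to. RMA makes the arrays alike as a whole, so the results are relative to all RNA in a sample. Each array was then centred on its CD3 chain genes instead, which raised values in CD11c+ relative to CD11c- samples by 0.74 on average. On that scale 42 of the 81 genes were called higher (51.9%), as were 49.6% of all probe sets. The set's median became 0.67 beside 0.65 for all probe sets. The centring adds 1 constant to each array, so it leaves the place of the set among all probe sets as it was.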

How the data were processed

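Sorted blood T cells of 3 mice were measured as 6 samples on single-colour Affymetrix arrays, and the labels give the pairing by mouse. Scans were normalized and summarized by the authors with RMA, giving the deposited log2 value of each of 45141 probe sets. RMA and limma are named in the submitters' processing notes without versions. RMA equalises the arrays, so a change in total RNA per cell cannot be seen. Only 300 cells were amplified for each array, and the number of arrays limits the precision. The median standard error was 0.147 for the 37 genes of other tissues, 0.186 for genes above background and 0.157 for those with a mean over 8.

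All probe sets were fitted with limma 3.58.1 (R 4.3.3), a term for the mouse included. Tests were two-sided, p-values were adjusted by Benjamini-Hochberg and the threshold was 0.05. Intervals (95%) used 4.43 degrees of freedom, 2 residual and 2.43 prior. The method was tested on simulated data. Deviations of same-mouse arrays from their group means correlated at 0.0758 to 0.122 across probe sets, and those of different mice at -0.086 to -0.0217. A single gene symbol is given by the platform annotation for 28898 probe sets, more than 1 for 551, and 15692 are unnamed here. Promoters came from RefSeq, and the values name no build.

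The genes described and the lists beside them were chosen with earlier results of these data known. Genes given with values were the extremes of each complex with 1 direction in 3 of 3 mice, the brightest, the most variable, complex II, the cytochromes and sets of isoforms. Ndufs3, Cox5a, Cox5b, Uqcrc2 and Ndufa12 were added after their values were seen. Alternatives covered the block, the choice of probe set, a filter on dim probe sets, 3 scalings, the variance model, the threshold and each mouse left out.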

Additional observations from a re-analysis of the deposited data

How the results depend on the processing

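The counts of 0 genes higher and 0 lower in the set held under every alternative run except centring on the CD3 chains (42 higher). They held without the replicate block (0 and 0), where the number of probe sets called rose to 684 higher and 211 lower from 432 and 76, without any one mouse, and at an adjusted p under 0.1. Of all probe sets 195 were lower after leaving out dim ones, 41 lower under cyclic loess, 668 higher and 193 lower with a trended and robust variance, and 22412 higher and 232 lower on the CD3 scale. Without each mouse in turn 0 to 348 were higher and 0 to 44 lower. None was called without mouse A, so the set's count of 0 in that fit says nothing about the set, and the cause was not tested. Fits on fewer mice have less power, so their counts of 0 add little to that of the main fit.

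The median of the set was 0.0101 under cyclic loess, which moved the median of all probe sets to -0.00689, and 0.665 on the CD3 scale. Under cyclic loess complex I had a median of -0.0305, complex IV of 0.0429 and ATP synthase of 0.0227. ATP synthase had -0.123 when the probe sets of each gene were averaged and -0.0382 with arrays centred on their medians. On the CD3 scale complex I had 0.624, complex II 0.698, complex III 0.662, cytochrome c 0.983, complex IV 0.708 and ATP synthase 0.672. Without each mouse in turn complex I ran from -0.19 to -0.0283, complex IV from -0.011 to 0.0566 and ATP synthase from -0.0638 to -0.0175. With the CD3 chains as the scale all 81 differences were above 0, and 54 of them had changed sign. Genes that turned from below 0 to called higher, by the shift itself, included Cox6b1 (0.641), Cox7a2l (0.671), Cox8b (0.708) and Ndufa12 (0.675). Signs changed for 14 of 81 genes under cyclic loess, 7 with the mean of probe sets, 5 with centring on medians and 12 to 22 without a mouse, and Ndufa12 came nearest to the threshold with the mean of its probe sets (adjusted p = 0.0582). Averaging probe sets tests genes, so it gives no count of probe sets.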
